A study of Oryza sativa Japonica Group with 64 samples.

Results

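Flag leaves of the rice csa mutant were compared with wild-type (WT) flag leaves under short days (SD). The comparison took in 10 csa and 10 WT libraries, 20 of the 64 in the series, chosen by their labels as all SD leaf libraries collected at 08:00, 16:00, 20:00, 00:00 and 04:00, with 2 biological replicates per genotype and time. All plants were Oryza sativa ssp. japonica 9522 grown in paddy fields in Shanghai, and SD plots were kept under opaque film from evening to early morning, which left 12 h of light. Leaves were taken when the anthers of the plant were at stage 12. The csa plants carried the csa mutation and the WT plants did not. Neither the kind of mutation nor the number of mutant lines or of plants behind a library is stated in the labels. The 4 SD libraries labelled 12:00 were left out because their genotype did not match the label, as described below. Leaves of both genotypes from uncovered plots in natural long days (LD), at the same 5 times and again 10 libraries per genotype, served for comparison. RNA was sequenced from total RNA without miRNAs, and the values analysed were raw read counts per gene.

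CSA (carbon starved anther) is an R2R3 MYB transcription factor known from rice anthers, where it is needed for the supply of sugar to developing pollen. Its mutant is known for sterile pollen under SD that turns fertile under LD. The flag leaf is a main source of the sucrose that reaches the panicle: it fixes carbon by day, stores part of it as starch in the chloroplast and exports sucrose through the phloem. Day length is read in leaves by photoreceptors and the circadian clock, which set the daily timing of many leaf transcripts.

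Total counts lay between 13.46 M and 19.4 M per library (median 16.24 M), and 21278 genes passed the filter on low counts and were tested. Levels are given as CPM, which are counts per 1e6 of the library total after scaling. The 2 replicates of each group had a Pearson r of log2 CPM across genes between 0.967 and 0.982, where genes are no independent replicates. The first principal component followed collection time and held 51.2% of the variance. Genotype labels were read from 8 marker genes chosen in anthers and LD leaves, 7 of them in 1 stretch of chromosome 1 and 1 on chromosome 3, so that they are not independent checks. Of the marker values in the 20 SD libraries, 2 of 160 were closer to the genotype not on the label, against 32 of 32 in the libraries labelled SD 12:00. Leaf marker genes of photosynthesis were abundant in all 20 libraries, and 6 of 15 anther marker genes had no count in any of them; the summed anther markers came to between 2.52 and 6.64 CPM in csa and between 3.11 and 8.17 CPM in WT. One library stood apart. Replicate 1 of csa at 16:00 had 31 genes with at least 10 counts that were at 0 in the other 19 libraries, while no other library had more than 2 such genes. It held 61 counts of OSH1, a homeobox gene of the shoot meristem, against 0 in each of the other 19. Its 4 summed cell division markers, OSH1 among them, came to 7.44 CPM, against 1.16 CPM in its replicate. OSH1 alone made up 3.85 of the 7.44 CPM. Values without this library are given for the count over times, the count at 16:00, AGPS1, GBSSII, COI1b and SUS1, and not for every result it enters.

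The CSA transcript (LOC_Os01g16810) was rare in leaves of both genotypes and did not separate them. It had 0.0646 CPM in the lowest csa library, 0.561 in the median and 2.82 in the highest, against 0, 1.34 and 4.10 CPM in WT. The 2 sets of values overlapped, and at 20:00 alone both csa replicates were below both WT replicates. At 16:00 no library had more than 2 counts, and at 00:00 csa had 0.302 and 2.82 CPM against 2.46 and 4.10 CPM in WT. Over all 5 times the log2 fold change of csa over WT was −0.57 (95% interval −1.31 to 0.17, edgeR adjusted p = 0.529). The level of CSA therefore could not check the genotype labels. Its paralog CSA2 had too few counts to be tested.

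Few leaf transcripts passed the threshold between csa and WT, and most of the large differences sat together on 1 chromosome. With collection time as a factor, edgeR's quasi-likelihood test called 191 of the 21278 genes at an adjusted p below 0.05 (0.898%). Of these, 77 were higher in csa (0.362%) and 114 were lower (0.536%), and 27 higher genes (0.127%) and 48 lower genes (0.226%) differed at least 2-fold. At an unadjusted p below 0.05 there were 2694 of 21278. The median log2 fold change of all tested genes was −0.0049. Of the 191 genes, 172 had the same sign at all 5 times, as had 2224 of all tested genes. The call was made over the same 5 times, so that the shared sign of called genes follows from it in part. In bulk leaf tissue, fewer cells of a type and less RNA per cell cannot be told apart. DESeq2 called 383 genes, 189 of them among the 191. Without the library that stood apart the count was 182. Without collection time 00:00 it was 93, and without 04:00 it was 116.

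Locus identifiers number the genes in their order along each chromosome, and 96 of the 191 called genes had a number below 8000 on chromosome 1. That stretch held 347 tested genes, so that 27.7% of them were called, against 95 of 20931 (0.454%) in the rest of the genome. In the stretch 36 called genes were higher in csa and 60 were lower, with a median size of 1.18 on the log2 scale, and 53 of them differed at least 2-fold. Elsewhere 41 were higher and 54 were lower, with a median size of 0.62, and 22 differed at least 2-fold. Along chromosome 1, in steps of 2000 locus numbers, 13 of 58, 18 of 102, 40 of 99 and 25 of 88 tested genes were called, then 3 of 106 and 1 of 79. From number 12000 up to 22000, which includes CSA, edgeR called 0 of 353 tested genes, with 47 at an unadjusted p below 0.05. A count of 0 in 353 is close to the 0.454% called outside the stretch. Of all 21278 tested genes 2694 had such an unadjusted p. The limit of 8000 was set after the values were seen.

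**Figure D1:**
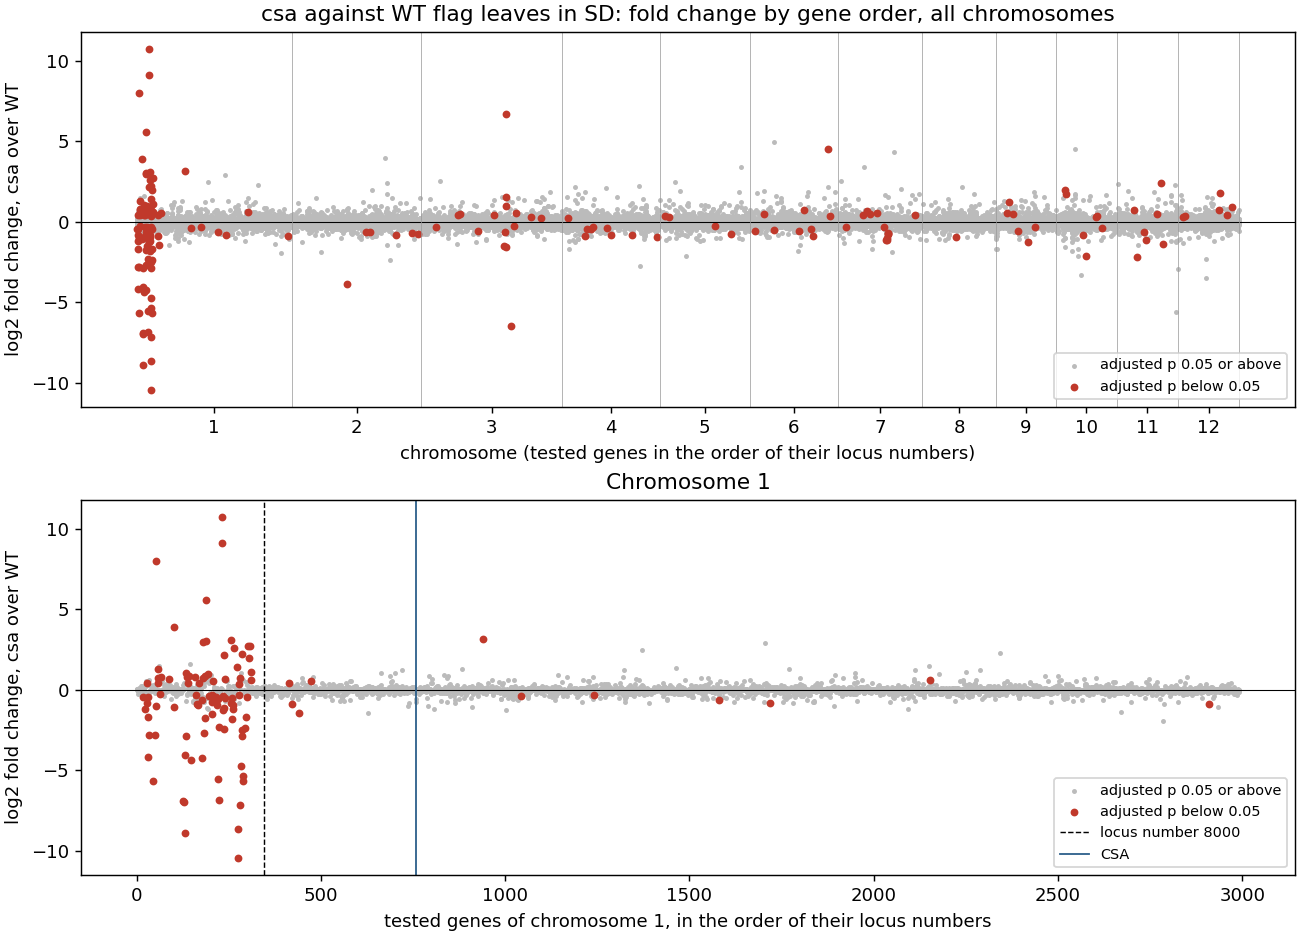
Log2 fold change of csa over WT for each tested gene in SD flag leaves (y axis), in the order of the genes along the 12 chromosomes (top) and along chromosome 1 alone (bottom); red points are the 191 genes with an adjusted p below 0.05, the dashed line marks locus number 8000 and the blue line CSA. Called genes with large differences crowd at the start of chromosome 1. Around CSA, from number 12000 up to 22000, 0 of 353 tested genes were called. Outside the first 8000 numbers of chromosome 1 it was 95 of 20931 (0.454%).

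Among all tested genes 5 had no count in any of the 10 libraries of a genotype, 3 of them in csa and 2 in WT, and all 5 lay in the stretch. Smaller groups of called genes were seen on chromosome 3, where 7 of 178 tested genes with numbers from 40000 up to 46000 were called, and on chromosome 7, where 5 of 35 neighbouring tested genes were called, all 5 lower in csa. These 2 regions were chosen after the values were seen. Chromosome 8 had 1 called gene of 1415 tested.

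The genes with the largest folds were read in 1 genotype and nearly absent in the other. They were picked among called genes whose higher genotype averaged 5 CPM or more, with 1 sign at all 5 times and no overlap of genotypes at any time. The table pairs its identifiers with no names, so that they are given by identifier only. LOC_Os01g05530 had 8.66 CPM in the lowest csa library, 12.3 in the median and 18.8 in the highest, and no count in any WT library. With 2124 counts in csa against a floor of 3 counts over the WT libraries it was at least 708-fold higher in csa (edgeR adjusted p = 1.55e-10). LOC_Os01g05510 had 15.1, 17.8 and 20.9 CPM in csa, against 0 to 0.130 CPM in WT, where 4 counts were found in all (log2 fold change 9.10, edgeR adjusted p = 2.30e-16). Every csa library was above every WT library for both genes, which the pick of genes without overlap at any time fixed in part. LOC_Os01g05530, LOC_Os01g05510 and LOC_Os01g06510 are among the 8 markers whose values led to SD 12:00 being left out, so that their separation in the libraries kept follows in part from that choice. With SD 12:00 included as labelled their adjusted p were 0.128, 0.103 and 0.104 (edgeR).

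The reverse held for the next pair. LOC_Os01g06510 had no count in any csa library and 4.43, 10.5 and 16.1 CPM in the lowest, median and highest WT library, which made it at least 579-fold lower in csa (edgeR adjusted p = 5.61e-09). LOC_Os01g03330 had 1 count in all csa libraries together, against 0.758, 3.61 and 19.3 CPM in WT, where it was highest at 00:00 (11.6 and 19.3 CPM). Its log2 fold change was −8.91 (edgeR adjusted p = 3.02e-12). In LD leaves the 4 genes kept their directions, with adjusted p of 1.34e-08 or lower. Markers were chosen for the same sign and no overlap of the genotypes in anthers and LD leaves. For LOC_Os01g05530, LOC_Os01g05510 and LOC_Os01g06510 the LD direction and the anther values below therefore follow from that choice and are no further evidence. In the SD anther libraries of the series, LOC_Os01g05530 had 12.4 to 20.3 CPM in csa and 0 to 0.263 CPM in WT, and LOC_Os01g06510 had no more than 0.0515 CPM in csa and at least 6.93 CPM in WT. LOC_Os01g05510 had 9.79 to 15.5 CPM in csa anthers and 0 to 0.0370 CPM in WT anthers. LOC_Os01g03330, which is no marker and had an adjusted p of 0.117 in leaves with SD 12:00 included as labelled (edgeR), overlapped in the SD anthers, with 0.126 to 0.515 CPM in csa and 0.187 to 0.592 CPM in WT. Over all genes, 105 of 21278 (0.493%) had no overlap between the genotypes and 1 sign at all 5 times. Of the 105, 90 were among the 191, and 58 lay in the stretch at the start of chromosome 1. Calls and overlap were read from the same values, so that the 90 are no further evidence.

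**Figure D2:**
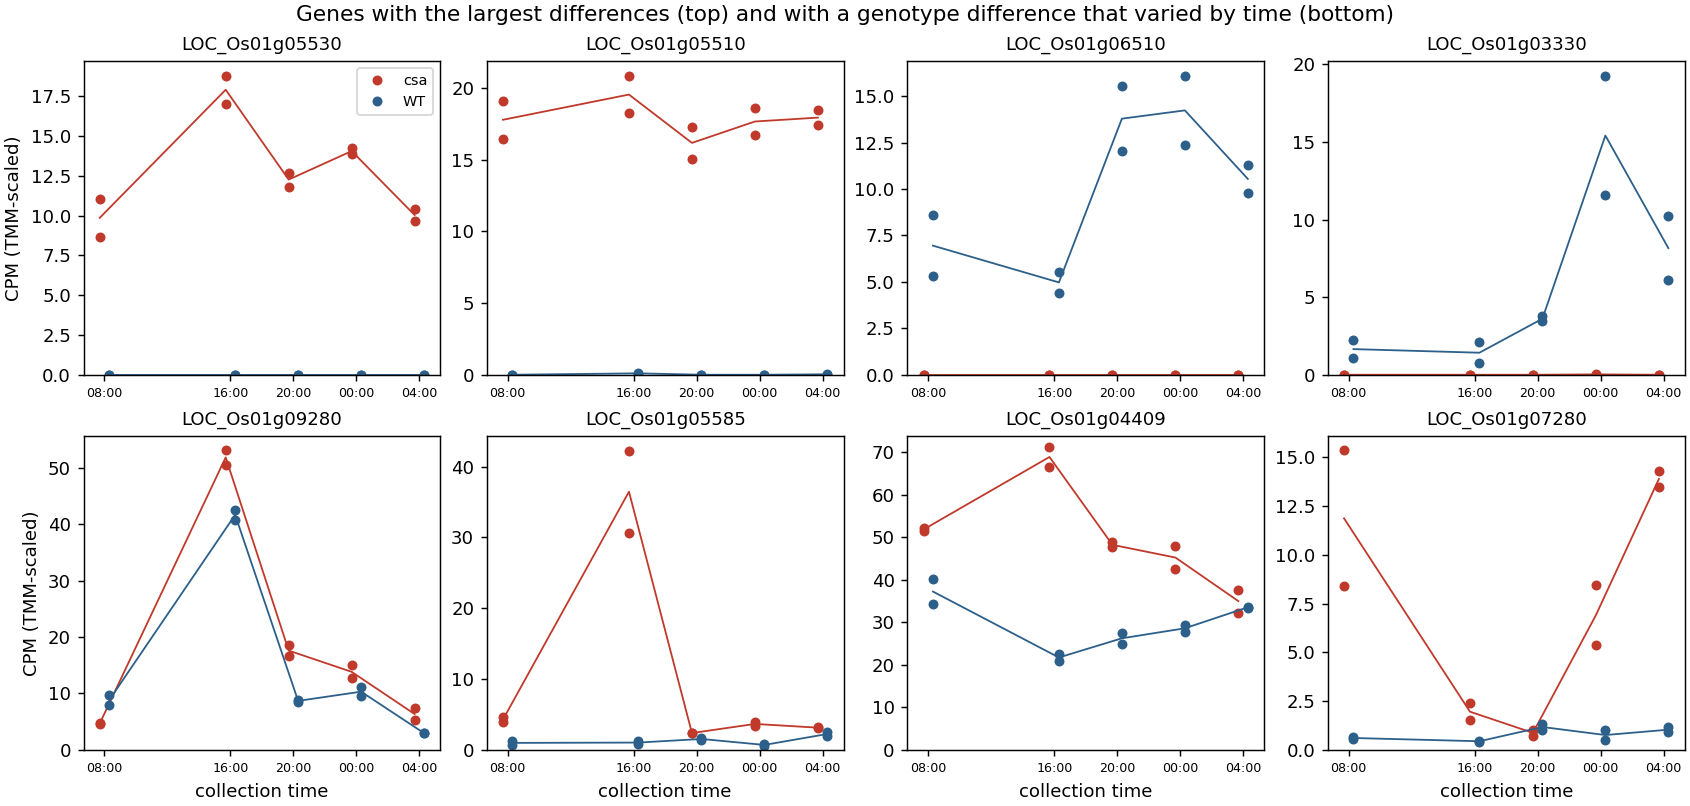
CPM on TMM-scaled totals (y axis) at each collection time (x axis, to scale) in csa (red) and WT (blue); points are single libraries, slightly offset between genotypes, and lines join the means of 2 replicates. The top row shows the 2 rises and 2 falls with the largest folds, of which 2 are at or near 0 in WT and 2 in csa, and the bottom row the 4 genes whose genotype difference varied over the day.

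Whether the genotype difference changed over the day was tested with the interaction of genotype and time. It was called for 4 of 21278 genes (0.0188%), while 1447 had an unadjusted p below 0.05. All 4 lie on chromosome 1, 3 of them in the stretch and LOC_Os01g09280 just beyond it. They are named because they are so few, and were chosen after their values were seen. LOC_Os01g05585 had 30.7 and 42.3 CPM in csa at 16:00, against 1.24 and 0.781 CPM in WT (log2 fold change 5.17). At 20:00 the same gene had 2.31 and 2.41 CPM in csa, against 1.66 and 1.38 CPM in WT (interaction adjusted p = 0.000435, edgeR). The difference was thus large in the afternoon and small in the evening.

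LOC_Os01g07280 differed most in the night and morning and overlapped between genotypes in the evening. At 04:00 it had 14.3 and 13.5 CPM in csa against 1.16 and 0.898 CPM in WT, and at 20:00 it had 1.01 and 0.717 CPM in csa against 1.01 and 1.33 CPM in WT (interaction adjusted p = 0.0358, edgeR). LOC_Os01g04409 had 66.4 and 71.3 CPM in csa at 16:00 against 22.5 and 20.8 CPM in WT, and at 04:00 the genotypes overlapped, with 37.6 and 32.2 CPM in csa and 33.6 and 33.4 CPM in WT (interaction adjusted p = 0.0131, edgeR). LOC_Os01g09280 was lower in csa at 08:00, with 4.52 and 4.78 CPM against 9.66 and 7.94 CPM in WT, and higher at 20:00, with 18.5 and 16.6 CPM against 8.79 and 8.54 CPM in WT (interaction adjusted p = 0.0243, edgeR). The call of LOC_Os01g05585 held without each library in turn; the other 3 were lost without 4 to 11 of the 20 libraries.

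Taken time by time, between 31 and 64 genes were called. There were 42 at 08:00 (0.197%; 18 higher in csa, 0.0846%, and 24 lower, 0.113%), 31 at 16:00 (0.146%; 14 higher, 0.0658%, and 17 lower, 0.0799%), 44 at 20:00 (0.207%; 14 higher, 0.0658%, and 30 lower, 0.141%), 64 at 00:00 (0.301%; 23 higher, 0.108%, and 41 lower, 0.193%) and 32 at 04:00 (0.150%; 12 higher, 0.0564%, and 20 lower, 0.0940%). Of these, 32, 24, 34, 38 and 24 lay in the stretch at the start of chromosome 1, in the same order of times. Exactly 12 genes were called at all 5 times, and 11 of them lay there. With 2 libraries per group these counts moved with single libraries. The count at 08:00 was 19 without WT replicate 1, 27 without csa replicate 1 and 525 without WT replicate 2. At 16:00 it was 17 without csa replicate 1, the library that stood apart, 272 without csa replicate 2, and 18 and 20 without WT replicates 1 and 2. At 20:00 it was 17 and 19 without csa replicates 1 and 2, and 25 and 23 without WT replicates 1 and 2. At 00:00 it was 24 without csa replicate 1, 29 and 30 without WT replicates 1 and 2, and 114 without either WT library of 08:00. At 04:00 it was 19 without WT replicate 1. A lone library was assumed to vary like the other groups.

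The closest comparison is the same one in LD leaves, where the mutant is fertile. There 203 of 21953 tested genes were called (0.925%), 107 higher in csa (0.487%) and 96 lower (0.437%). The same joint fit called 205 genes in SD (0.934%). Of the 191 genes called in SD, 89 were called in LD with the same sign, which is 46.6% of the SD calls and 89 of the 203 LD calls, and none was called with the opposite sign. In the stretch at the start of chromosome 1, 93 of the 96 SD genes had the same sign in LD and 70 were called there too. All 8 marker genes, 7 of them in the stretch, are among the 89. They were chosen for the same sign in anthers and LD leaves without overlap, so that their part of these counts follows from that choice. Elsewhere 70 of the 95 had the same sign and 19 were called in LD, while over all 21234 genes tested in both the signs matched for 52.0%. The LD count was 512 without WT LD 04:00 replicate 1 and 311 without WT LD 20:00 replicate 1.

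**Figure D3:**
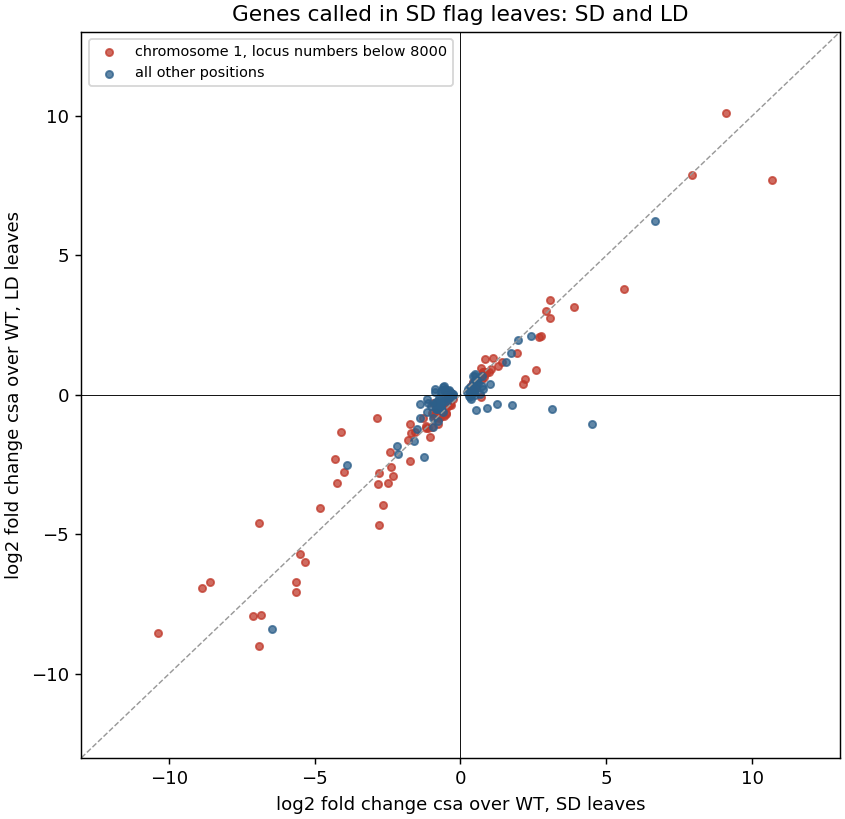
Log2 fold change of csa over WT in SD leaves (x axis) and in LD leaves (y axis), from 1 fit of both day lengths, for the 191 genes called in SD; red points lie below locus number 8000 on chromosome 1 and blue points elsewhere, and the dashed line marks equal values. Red points follow the line, with 93 of 96 of the same sign. The 8 marker genes, 7 red and 1 blue, are among the points and were chosen for the same sign in anthers and LD leaves. Their median size was 1.18 in SD and 1.04 in LD, and that of blue points was 0.62 in SD and 0.22 in LD. LD values were taken in the SD direction. The genes were chosen by their SD calls, which tends to enlarge sizes in SD. The difference between SD and LD was called for 0 of the 95 blue genes.

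The difference between the SD and LD effects was itself tested. It was called for 4 of 21953 genes (0.0182%), 3 positive (0.0137%) and 1 negative (0.00456%) as SD minus LD, with 2159 at an unadjusted p below 0.05, and with the replicate number as a block it was called for 0. LOC_Os01g06790 had 20.2, 37.8 and 63.3 CPM in the lowest, median and highest csa library in SD, against 4.60, 8.22 and 11.9 CPM in WT. In LD it had 18.3, 31.6 and 64.2 CPM in csa, against 14.9, 20.7 and 30.1 CPM in WT (SD minus LD log2 difference 1.64 ± 0.26 SE, edgeR adjusted p = 0.0102). The genotypes were apart in SD and overlapped in LD. This was the 1 gene of the 4 whose call held without each of the 40 libraries in turn.

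Of the gene lists, starch synthesis was the 1 with 2 called genes; no other list had more than 1. Of 18 tested genes of starch synthesis, 2 rose in csa and none fell, 15 had a positive log2 fold change, and the median was 0.10. Over all 21278 tested genes 0.362% were called higher, 10355 were positive and the median was −0.0049. Lists and their members were chosen with earlier results of these data known, so that these shares are no independent evidence. AGPS1 (LOC_Os09g12660), a small subunit of ADP-glucose pyrophosphorylase, which makes the glucosyl donor of starch, had 5.02, 6.16 and 19.2 CPM in the lowest, median and highest csa library, against 2.51, 4.89 and 12.7 CPM in WT. Both csa replicates were above both WT replicates at 4 of 5 times, 16:00 being the exception. The share of all tested genes set apart at 4 of 5 times is not given, for this gene or those below. Such statements therefore only describe single genes. At 00:00 it had 5.04 and 5.26 CPM in csa, against 3.80 and 2.51 CPM in WT. Its log2 fold change was 0.54 (95% interval 0.29 to 0.78, edgeR adjusted p = 0.0245).

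GBSSII (LOC_Os07g22930), the granule-bound starch synthase of leaves, which makes amylose, changed strongly over the day in both genotypes. It had 1528 and 1736 CPM in csa at 08:00 against 1155 and 1488 CPM in WT, and 5.52 and 6.61 CPM in csa at 20:00 against 3.06 and 3.66 CPM in WT. Both csa replicates were above both WT replicates at 4 of 5 times, again without 16:00. The log2 fold change was 0.49 (95% interval 0.26 to 0.72, edgeR adjusted p = 0.0300). In LD the log2 fold changes were −0.54 for AGPS1 (edgeR adjusted p = 0.466) and −0.01 for GBSSII, and the SD minus LD differences of 1.07 and 0.50 were not called. Without the library that stood apart the SD log2 fold changes of AGPS1 and GBSSII were 0.47 and 0.48, with adjusted p of 0.0560 and 0.0596, so that neither was called. Of the 20 libraries left out one at a time, 7 ended the call of AGPS1 and 14 that of GBSSII, and in a fit of all leaf libraries except SD 12:00 the adjusted p was 0.376 for AGPS1 and 0.285 for GBSSII.

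The other starch genes did not pass. The soluble starch synthase SSI had 4.56, 14.4 and 310 CPM in csa and 2.62, 10.7 and 272 CPM in WT (log2 fold change 0.44, edgeR adjusted p = 0.111). The branching enzyme BEIIa, with a log2 fold change of 0.38, and the large subunit AGPL1, with 0.36, had intervals above 0 but adjusted p of 0.195 and 0.186 (edgeR). AGPS2, AGPL3 and SSIIb had log2 fold changes between 0.01 and 0.07. Of 7 tested genes of starch breakdown none was called and 6 were positive, against 10355 of all 21278 tested genes. Among the 6 were the glucan water dikinase GWD1, which phosphorylates starch for its breakdown, and the maltose transporter MEX1. Their log2 fold changes were 0.14 and 0.18. The difference between SD and LD was called for no gene of either list.

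**Figure D4:**
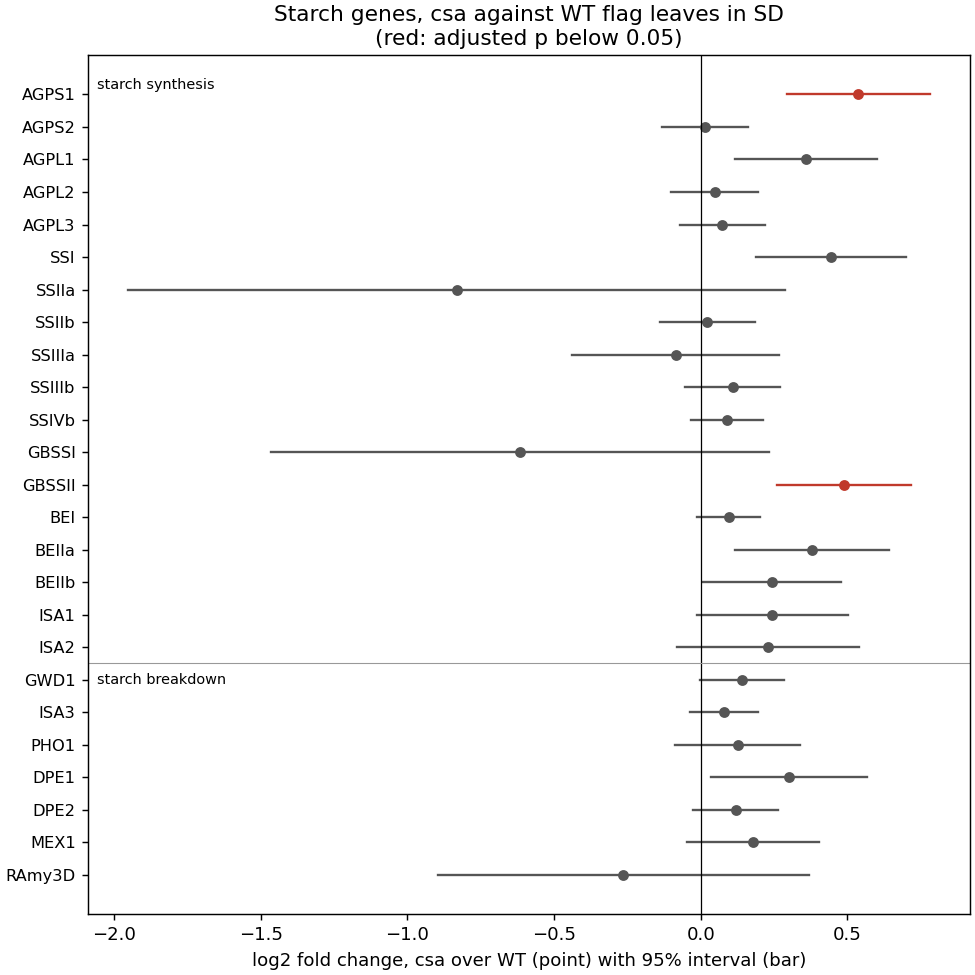
Log2 fold change of csa over WT in SD leaves (x axis; points, with bars for the 95% interval) of the 25 tested starch genes (y axis), synthesis above and breakdown below the grey line; red marks an adjusted p below 0.05. Only AGPS1 and GBSSII are red, and 21 of the points lie right of 0. Of all 21278 tested genes 10355 had a positive log2 fold change.

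Genes that move sugar gave no call over the 5 times. None of 20 tested genes of sugar transport and invertase was called, with a median log2 fold change of 0.05, and 18 of them had a 95% interval within 2-fold. OsMST3, a monosaccharide transporter, had 16.4, 38.6 and 54.5 CPM in csa, against 20.2, 43.8 and 77.4 CPM in WT. Its log2 fold change was −0.33 (edgeR adjusted p = 0.115), with both csa replicates below both WT replicates at 4 of 5 times. The vacuolar transporters OsTMT1 and OsTMT2 had log2 fold changes of 0.01 and 0.11, and the sucrose transporters OsSUT4 and OsSUT2 had −0.02 and 0.10.

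Of these genes 2 were called at a single time of night. OsSUT1, the sucrose transporter of phloem loading and retrieval, had 66.6 and 65.6 CPM in csa at 04:00 against 141 and 100 CPM in WT (log2 fold change −0.87, edgeR adjusted p = 0.0186). At 16:00 the genotypes overlapped, with 48.1 and 47.6 CPM in csa and 42.9 and 52.3 CPM in WT. OsSWEET1a, a sugar uniporter, had 52.2 and 46.3 CPM in csa at 00:00 against 30.0 and 25.7 CPM in WT (log2 fold change 0.82, edgeR adjusted p = 0.0199), and overlapped between genotypes at 08:00. The interaction with time was called for neither, and 3 of the 20 libraries ended each call, which for OsSUT1 were WT replicate 1 and both csa replicates at 04:00, with adjusted p of 0.267, 0.142 and 0.256. For OsSWEET1a they were both WT replicates and csa replicate 1 at 00:00, with adjusted p of 0.0625, 0.217 and 0.225.

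Sucrose metabolism gave no call among 13 tested genes. The size of the largest fold in that list came from the library that stood apart. SUS1, a sucrose synthase, had 404 and 15.8 CPM in csa at 16:00, against 15.7 and 15.9 CPM in WT, and no more than 21.7 CPM in any other csa library. Its log2 fold change was 1.02 with that library (edgeR adjusted p = 0.383) and 0.29 without it (adjusted p = 0.0581). Without collection time 16:00 it was 0.34 (adjusted p = 0.0356), and without both csa libraries of 16:00, an alternative chosen after seeing the data, it was 0.34 (adjusted p = 0.0223), so that SUS1 was called in both. The sucrose phosphate synthase SPS1 and the cytosolic fructose-bisphosphatase cFBP1, enzymes of sucrose synthesis, had log2 fold changes of 0.10 and 0.16, and the energy sensor kinase SnRK1A had 0.02.

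Clock genes differed little between csa and WT at these 5 times. None of 13 was called, the interaction with time included, and the 95% intervals of all 13 lay between −0.33 and 0.50 on the log2 scale. OsLHY, the morning MYB factor, had 8862 and 10446 CPM in csa at 08:00 against 7527 and 8739 CPM in WT, and 81.1 and 75.2 CPM in csa at 16:00 against 67.9 and 62.5 CPM in WT. It was higher in both csa replicates at 4 of 5 times, with a log2 fold change of 0.19 (95% interval 0.03 to 0.34, edgeR adjusted p = 0.281). OsGI, the evening gene GIGANTEA, which lies shortly beyond the stretch on chromosome 1, had 210 and 209 CPM in csa at 00:00 against 144 and 130 CPM in WT. That was the widest gap of OsGI at any time (log2 fold change 0.61) and missed the threshold (edgeR adjusted p = 0.0653). The pseudo-response regulators OsPRR1, OsPRR37, OsPRR59, OsPRR73 and OsPRR95, which follow one another through the day, had log2 fold changes from −0.08 to 0.05.

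**Figure D5:**
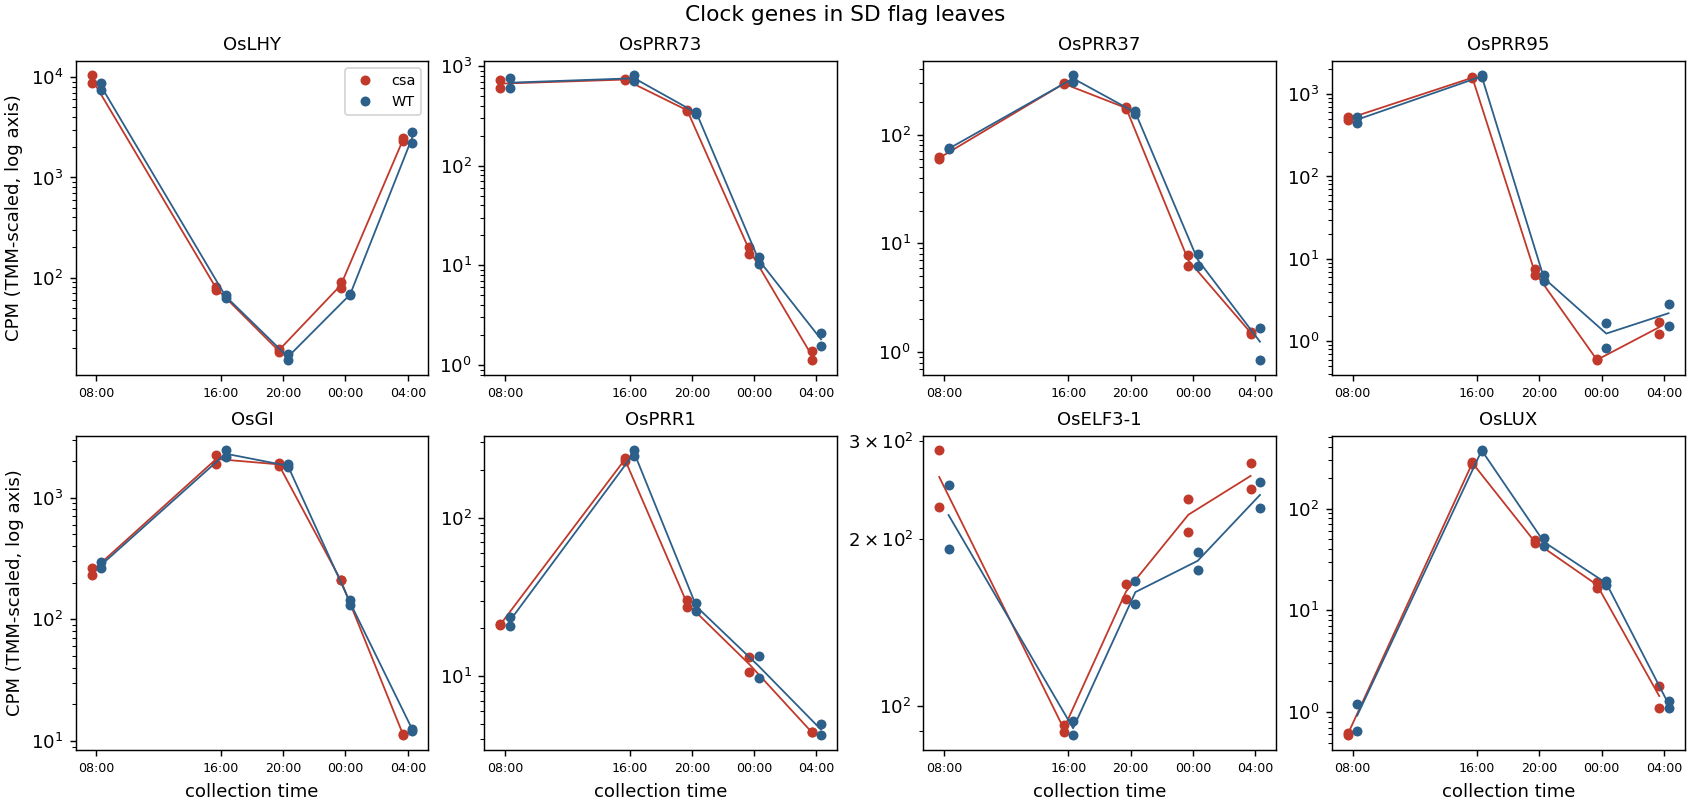
CPM on TMM-scaled totals (y axis, log scale) of 8 clock genes at the 5 collection times (x axis, to scale) in csa (red) and WT (blue) SD leaves; points are single libraries, slightly offset between genotypes, and lines join the means of 2 replicates. In each panel the means of both genotypes have their highest value at the same time.

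Photoreceptors and flowering genes were likewise not called over the 5 times. The phytochromes PHYA, PHYB and PHYC had log2 fold changes of 0.07, −0.02 and −0.05. CRY2, a blue light receptor, was called at 04:00 alone, with 18.9 and 18.3 CPM in csa against 31.2 and 28.4 CPM in WT (log2 fold change −0.68, edgeR adjusted p = 0.0486). At 08:00 it had 48.7 and 45.4 CPM in csa and 44.7 and 48.7 CPM in WT, with overlap. The call of CRY2 was lost without 17 of the 20 libraries, with adjusted p of up to 0.457, and its interaction with time was not called. Of 12 flowering genes none was called: Hd3a, a florigen, which is the leaf signal that starts flowering, had a log2 fold change of 0.01, and Ghd7, a repressor of flowering in long days, had 0.71 (edgeR adjusted p = 0.240). Over all 197 tested list genes, 3 were called at a single time, 2 of them at 04:00 and 1 at 00:00. Of all 21278 tested genes 65 were called at exactly 1 time, and the shares called were 0.150% at 04:00 and 0.301% at 00:00.

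No photosynthesis gene was called in SD. Of 19 tested, 17 had a positive log2 fold change, the median was 0.10 and all 19 intervals lay within 2-fold. Of all 21278 tested genes 10355 were positive, and the median size in either direction was 0.10. The Rubisco small subunit RBCS2 had 10249, 16394 and 26676 CPM in the lowest, median and highest csa library, against 7498, 15650 and 34714 CPM in WT (log2 fold change 0.09, 95% interval −0.11 to 0.29). SBPase, an enzyme of the Calvin cycle, had the lowest adjusted p of the list (log2 fold change 0.23, edgeR adjusted p = 0.272). In LD 5 of the 19 were called, all higher in csa, against 0.487% of all 21953 tested genes called higher there. This list too was chosen with earlier results of these data known. The LD count over all genes ran from 148 to 512 without each library. The log2 fold changes of the 5 ran from 0.41 for RBCS4 to 0.83 for the antenna protein gene CAB2R. Both belong to families of near-identical copies, among which the split of reads is uncertain. The chlorophyll genes HEMA1, CHLI and PORB also rose in LD, by log2 fold changes of 0.45, 0.41 and 0.60, and had 0.03, −0.01 and −0.12 in SD. The nitrite reductase gene NiR had a log2 fold change of 0.96 in LD (edgeR adjusted p = 0.00227) and 0.18 in SD. The difference between SD and LD was called for none of the genes named in this paragraph, so that they are not shown to respond differently in the 2 day lengths.

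Hormone genes gave 1 call. COI1b (LOC_Os05g37690), an F-box receptor of jasmonate, fell by 0.26 on the log2 scale in csa (95% interval −0.38 to −0.13, edgeR adjusted p = 0.0328). It had 94.6, 105 and 135 CPM in the lowest, median and highest csa library, against 114, 121 and 176 CPM in WT. Both csa replicates were below both WT replicates at 4 of 5 times, and at 08:00 the genotypes overlapped. Without the library that stood apart the fold change was −0.26 and the adjusted p 0.0502, and 14 of the 20 libraries left out in turn ended the call. The other 13 jasmonate genes were not called, among them its close relative COI1a, with a log2 fold change of 0.07.

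Of 7 tested gibberellin genes none was called, and GID1 and GA20ox2 had the lowest adjusted p. GID1, the gibberellin receptor, had 22.2, 30.0 and 39.1 CPM in csa, against 29.3, 36.3 and 57.7 CPM in WT (log2 fold change −0.38, edgeR adjusted p = 0.0547). GA20ox2, the gibberellin biosynthesis gene of the semidwarf rice varieties, had 0.856, 1.77 and 7.57 CPM in csa, against 1.45, 4.10 and 8.27 CPM in WT (log2 fold change −0.72, edgeR adjusted p = 0.0668). In LD GA20ox2 had a log2 fold change of 0.77 (adjusted p = 0.154), and the SD minus LD difference was −1.50 (edgeR adjusted p = 0.0688). For GID1 and GA20ox2, which were named for their low p, both csa replicates were below both WT replicates at 4 of 5 times. The share of all tested genes set apart in this way is not given. Of the 7 gibberellin genes 6 were negative, with a median log2 fold change of −0.11. Of all 21278 tested genes 10923 were negative, and the median size in either direction was 0.10. None of 14 defence genes was called, and the widest fold there was that of WRKY76, a WRKY repressor of immunity, with 0.710, 1.87 and 11.6 CPM in csa and 0.207, 0.953 and 2.20 CPM in WT (log2 fold change 1.35, edgeR adjusted p = 0.148).

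Heat shock genes gave 1 call, and it lies in the stretch on chromosome 1. HSP17.0 (LOC_Os01g04380), a small heat shock protein, had 5 counts in the 10 csa libraries together and 114 in the 10 WT libraries. That was 0, 0 and 0.312 CPM in the lowest, median and highest csa library, against 0.182, 0.724 and 1.38 CPM in WT (log2 fold change −4.22, edgeR adjusted p = 0.000246). At 08:00 the genotypes overlapped, with 0.312 and 0 CPM in csa and 0.983 and 0.182 CPM in WT. A near copy, HSP16.9A, lies beside it, so that the split of reads between the copies is uncertain. No gene was called among 4 genes of abscisic acid and drought, 6 of phosphate supply, 7 of antioxidant enzymes, 9 of nitrogen, 10 of chlorophyll synthesis and 6 of senescence, nor among the 3 anther and 2 cell division markers that could be tested. In all, 4 of 197 tested list genes were called over the 5 times (2.03%, against 0.898% of all genes), 2 higher and 2 lower. The lists were chosen with earlier results of these data known, so that the 2 shares are no independent comparison. Of the 197, 179 had a 95% interval within 2-fold in either direction.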

How the data were processed

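The authors deposited raw read counts per gene for flag leaves, a table of 55986 genes with rice locus identifiers, of which 185 lie on no chromosome; anther counts came in a second table. The aligner, counter, genome build and annotation stay unnamed, being not given in the sources used here. Sequences were not used here. Libraries were grouped by their labels.

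Counts were analysed in R 4.3.3 with edgeR 4.0.16: filterByExpr, TMM scaling (factors 0.68 to 1.30), trended dispersions, quasi-likelihood F-tests and Benjamini-Hochberg adjustment over all tested genes at 0.05. The comparison over times used time as a factor and 20 libraries; single times and the interaction used 1 mean per genotype and time; LD and the day length interaction used 40 libraries. CPM are on TMM-scaled totals, where 10 counts were worth 0.437 to 0.912 CPM. Intervals follow from the F statistic, and edgeR adjusts some p-values upward, so that both can differ slightly. Folds against a genotype without counts used a floor of 3 counts over its 10 libraries; floors cover counting error only. P-values rest on replicates that the labels call biological. Replicates were not duplicates, with a chi-square per gene of at least 9.65.

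The 21 gene lists hold 236 genes, 235 of them in the table. Symbols and identifiers were written from memory: 140 symbols were found in RefSeq (ASM3414082v1) on the same chromosome, 2 on another and 94 not at all. Among the 94 were AGPS1, GBSSII, HSP17.0, CSA and CRY2, whose names and functions rest on memory alone. Members and lists were chosen with earlier results of these data known. Named were CSA, list genes past the threshold, and 2 rises and 2 falls with the largest fold among called genes with at least 5 CPM in the higher genotype, 1 sign at all 5 times and no overlap at any time; other list genes are named to show values. Alternatives were RLE scaling, DESeq2 1.42.0, other filters, a minimum fold of 2, other designs and libraries or times left out. The scripts were tested on simulated data.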

Additional observations from a re-analysis of the deposited data

Results flagged for a closer look

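The genotype difference varied with collection time, by the test of the interaction, in LOC_Os01g05585 (adjusted p = 0.000435), LOC_Os01g04409 (adjusted p = 0.0131), LOC_Os01g09280 (adjusted p = 0.0243) and LOC_Os01g07280 (adjusted p = 0.0358, all edgeR). All 4 lie on chromosome 1. LOC_Os01g05585 was the 1 of them called without each library in turn, with adjusted p of up to 0.0155.

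A genotype difference that varied with day length was called in 4 genes, and with the replicate number as a block in 0. The call of LOC_Os01g06790 held without each of the 40 libraries in turn. The calls of LOC_Os01g04520, LOC_Os06g15730 and LOC_Os06g49040 were lost without 25, 30 and 24 of them. The difference is given as SD minus LD on the log2 scale with edgeR adjusted p. It was 1.64 in LOC_Os01g06790 (adjusted p = 0.0102) and 1.77 in LOC_Os01g04520 (adjusted p = 0.0461). LOC_Os01g04520 had 3.84 to 15.4 CPM in csa and 0.0540 to 0.331 CPM in WT in SD, and 5.66 to 12.0 CPM in csa and 0.280 to 1.38 CPM in WT in LD. It was −0.55 in LOC_Os06g49040 and 1.27 in LOC_Os06g15730 (adjusted p = 0.0461 each), where the genotypes differed in LD and not detectably in SD: LOC_Os06g15730 had medians of 45.5 CPM in csa and 45.7 CPM in WT in SD, and of 18.0 CPM in csa and 38.6 CPM in WT in LD.

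In the libraries labelled SD 12:00, which no comparison used, 32 of 32 marker values were closer to the other genotype than to the one on the label. In the libraries labelled LD 12:00 it was 0 of 32. With the SD 12:00 libraries included as labelled, 5 genes were called over the times instead of 191.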

How the results depend on the processing

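The count of 191 genes stayed within 1.5 times under RLE scaling, a stricter filter, 1 mean per genotype and time, the replicate block (195) and all leaf libraries in 1 fit, and between 143 and 212 without each library; the cause of the changes below was not tested. The genes called were less stable than their count. Of the 191, RLE scaling kept 189, the stricter filter 149, the replicate block 161, 1 mean per genotype and time 162 and all leaf libraries in 1 fit 158. Without each library 140 to 180 of them were kept. The count in the stretch at the start of chromosome 1 was 96, and 83 to 95 without each library, while the count elsewhere ran from 59 to 119. A minimum fold of 2 left 43 genes, 38 of them in the stretch. With SD 12:00 included as labelled 5 were called, 1 of them there. Without 00:00 there were 93 and without 04:00 there were 116. With 1 collection time left out, between 23 (without 00:00) and 58 (without 16:00) of the 95 genes called elsewhere were kept. In the stretch it was between 64 (without 00:00) and 79 (without 16:00) of the 96. DESeq2 called 383 in SD, 363 in LD, and 170, 101, 68, 253 and 91 at 08:00, 16:00, 20:00, 00:00 and 04:00, with 130 for the interaction with time and 50 for that with day length. With no filter on low counts there were 1152 in SD, 873 in LD, 686, 543, 285, 792 and 440 at these times, and 1219 and 586 for the interactions. SUS1, at 404 CPM in 1 library, was then called too (adjusted p = 2.71e-25); whether the dispersion trend holds in this fit was not tested, so that its counts may not be reliable.

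Deviations of same-numbered libraries correlated weakly, with r from −0.0212 to 0.120 at the 5 times, 2 of them above 0.1. The highest r was at 00:00, where 64 genes were called without a replicate block. Such values cannot settle whether replicate numbers paired the libraries. With the replicate block there were 160 calls at 00:00, 8 for the interaction with time and 0 for that with day length, and AGPS1 (adjusted p = 0.0590), CRY2 at 04:00 (0.0861) and the interaction of LOC_Os01g07280 with time (0.0824) were not called. Without each library in turn the counts were 19 to 525 at 08:00, 17 to 272 at 16:00, 17 to 47 at 20:00, 24 to 114 at 00:00, 19 to 37 at 04:00, 148 to 512 in LD, 1 to 46 for the interaction with time (highest without csa SD 16:00 replicate 2) and 1 to 17 for that with day length (highest without WT LD 04:00 replicate 1). No fold change with alternatives run changed its sign; most other list genes named had none run.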
